A study of Oryza sativa with 8 samples.

Results

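The gene-rich bins of the B compartment were 50-kb bins of the rice genome that held 7 to 9 genes and had a compartment score (PC1) of 0 or below in both normal libraries of a cultivar. There were 977 of them among the 15231 bins of the 2 genomes, 519 in Nipponbare (Nip, a japonica rice) and 458 in 93-11 (an indica rice). A bin had to be scored by all 4 libraries of its cultivar, which left 14357 bins to choose from. The 8 Hi-C libraries came from the aerial parts of 3-week-old seedlings in 4 groups of 2 replicates, which were Nip under heat stress (HS), Nip normal, 93-11 HS and 93-11 normal. HS was 45 °C for 36 h and came with high humidity and with less light than during growth, and light and humidity of the normal seedlings during those hours are not given. Heat, humidity and light therefore cannot be told apart.

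Hi-C records which stretches of chromatin lie close together in the nucleus. On the scale of chromosomes, contacts fall into the A compartment, which holds most active, open and gene-rich chromatin, and the B compartment, which holds closed chromatin and, in rice, the centromeres and the repeat-rich regions around them. PC1 is the axis that separates them, positive in A and negative in B. On a finer scale, chromatin is divided into topologically associating domains (TADs), stretches with more contacts inside than across their borders. Bins with many genes that still lie in B are the exception to the usual pairing of genes with A.

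Such bins were a minority of gene-rich chromatin and a smaller minority of B. In Nip, 25.5% of the 2034 scored bins of 7 to 9 genes were in B, against 1471 bins in A and 44 with a different call in each normal library. In 93-11 the share was 23.5% of 1950, against 1462 in A and 30 with mixed calls. Another 58 bins of 7 to 9 genes in Nip and 34 in 93-11 lacked a score in at least 1 library. The members made up 15% of the 3465 B bins of Nip and 12.5% of the 3675 of 93-11, and they held 27% and 24.7% of the genes counted in B (3932 genes in Nip and 3509 in 93-11). The typical B bin had 4 genes in both cultivars, whereas the typical A bin had 7. Among the members, bins of 7 genes were the most frequent (287 in Nip and 230 in 93-11), followed by bins of 8 genes (165 and 153) and of 9 genes (67 and 75). Just outside the rule, 390 B bins of Nip and 383 of 93-11 had 6 genes, and 33 and 26 had 10. Just inside the limit on PC1, 26 members of Nip and 20 of 93-11 had a higher normal score between -0.005 and 0.

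The members lay away from the chromosome ends, as B bins in general did. Their median distance to the nearer end was 10.1 Mb in Nip and 10.9 Mb in 93-11, close to the 10.8 Mb and 11.1 Mb of the other B bins and well above the 4.52 Mb and 4.56 Mb of A bins with 7 to 9 genes. Only 15.6% of the members of Nip and 12.9% of those of 93-11 were within 5 Mb of an end, against 54.7% and 54.2% of the A bins with the same gene numbers. The way from a chromosome end to the chromosome's midpoint was cut into 5 equal parts. In the outermost part, 41 of 554 bins of 7 to 9 genes were members in Nip (7.4%) and 35 of 569 in 93-11 (6.15%). The share then stepped up through 12.5%, 31% and 42.1% to 69.4% in the innermost part in Nip (161 of 232), and through 13.6%, 30% and 34.3% to 77.5% in 93-11 (138 of 178). The share of B among all scored bins stepped up along with it, through 17%, 24.5%, 49.4% and 67.6% to 86% in Nip and through 17%, 27.7%, 51% and 67.9% to 88.1% in 93-11. These positions are descriptions without a test, because each cultivar is a single genome.

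**Figure D1:**
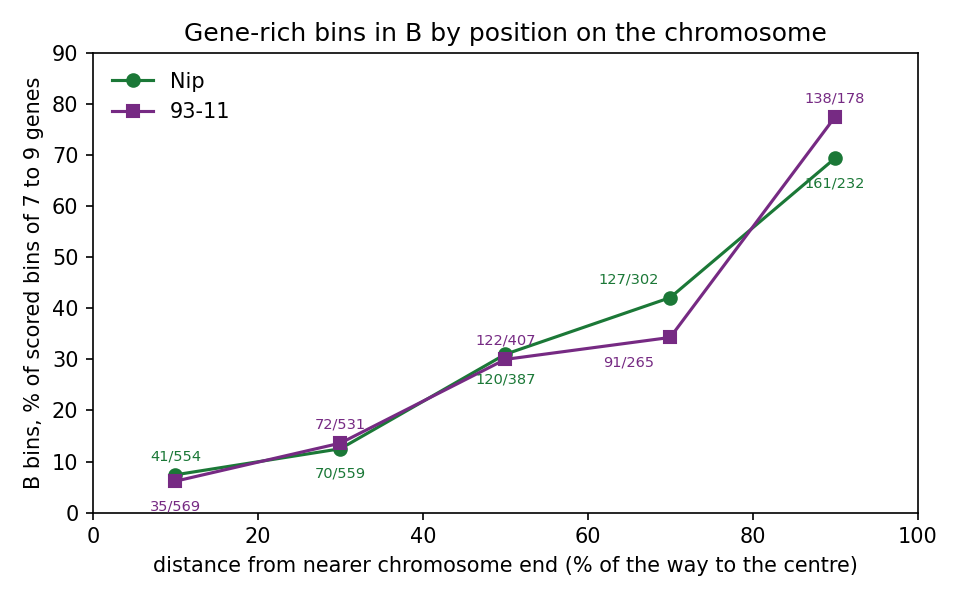
Share of scored bins with 7 to 9 genes that were B in both normal libraries (y axis, percent) by distance from the nearer chromosome end, in percent of the way to the chromosome's midpoint (x axis), in Nip (circles) and 93-11 (squares). Numbers beside the points are members over bins of 7 to 9 genes, and the share was 7.4% and 6.15% in the outermost part and 69.4% and 77.5% in the innermost.

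All 12 chromosomes held members, but the long chromosomes 1, 2 and 3 held the most. They had 78, 72 and 63 members in Nip and 72, 72 and 84 in 93-11, which was 19.2% to 23.3% of their B bins. On the other 9 chromosomes the share was 6.27% to 15.3% in Nip and 3.46% to 13.1% in 93-11, and chromosome 12 had the fewest members in both cultivars (16 and 8). As a share of scored bins of 7 to 9 genes, chromosomes 1, 2 and 3 stood out less. In Nip the members were 26.4%, 29.6% and 26% of these bins, against 25.5% over all chromosomes, and chromosome 10 was highest with 32.1%. In 93-11 they were 23.5%, 30.5% and 32.8%, against 23.5% over all chromosomes. A large part of the members sat in a few long stretches in which no bin was called A. In Nip the fullest was chr3:12900001-27800000, 14.9 Mb with 56 members, followed by chr1:9250001-23900000 with 55 and chr2:7050001-18850000 with 47. The corresponding stretches of 93-11 were chr1:9050001-26000000 with 63 members, chr3:13250001-29550000 with 62 and chr2:5900001-21100000 with 51. These 3 stretches together held 30.4% of the members of Nip and 38.4% of those of 93-11. They also held 781 of the 3465 B bins of Nip and 892 of the 3675 of 93-11. At the other end, 67 members of Nip and 54 of 93-11 were in B stretches of at most 250 kb, which held 336 and 355 B bins.

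Most members stood alone among bins with fewer genes. Joined where adjacent, the 519 members of Nip gave 414 runs, 325 of them 1 bin long, and the 458 members of 93-11 gave 359 runs, 282 of them 1 bin long. The bins on either side of a member had 5.25 genes on average in Nip and 5.26 in 93-11, more than beside other B bins (4.12 and 3.74) and fewer than beside A bins with 7 to 9 genes (7.03 and 7.09). The longest run of Nip was chr6:1050001-1250000, 4 bins with 32 genes only 1.07 Mb from the chromosome end, with a mean PC1 of -0.0503 and -0.0495 in the HS libraries and -0.0432 and -0.0428 in the normal libraries. The longest run of 93-11 was chr7:6900001-7150000, 5 bins with 40 genes, with a mean PC1 of -0.039 and -0.0378 in HS and -0.0386 and -0.04 in normal. The next longest of 93-11 was chr3:38700001-38900000, 4 bins with 32 genes at 0.15 Mb from the end. In Nip 14 runs tied at 3 bins, and the first of them by position, chr1:9300001-9450000, had 21 genes. Of these 14 runs, 2 held a bin with a score above 0 in a library, as did 1 of the 17 runs of 3 bins in 93-11, while the 3 longer runs of both cultivars held none. Few members touched A chromatin: 89 of Nip (17.1%) and 85 of 93-11 (18.6%) had an A bin on at least 1 side, against 11.8% and 11.9% of the other B bins.

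PC1 of the members was negative by the rule, and less so than in the other B bins. In Nip the median over members was -0.036 in both HS libraries and -0.037 in both normal libraries, against -0.043 in both HS and -0.044 in both normal libraries in the other B bins. In 93-11 it was -0.035 and -0.0345 in HS and -0.035 in both normal libraries, against -0.043 in all 4 libraries in the other B bins. The size of PC1 cannot be compared across chromosomes, since the squares of PC1 summed to about 1 on every chromosome, but the order held on each of them: the median normal PC1 of the members was above that of the other B bins on 12 of 12 chromosomes in both cultivars. The lowest member of Nip, chr10:9600001-9650000 with 9 genes, had -0.057 and -0.063 in HS and -0.058 in both normal libraries. The lowest member of 93-11, chr12:17850001-17900000 with 7 genes, had -0.055 and -0.057 in HS and -0.054 in both normal libraries. Because normal PC1 chose the members, these levels are descriptions without a test.

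The median score over members differed between HS and normal by 0.001 in Nip and by 0.00025 in 93-11, which is no more than the 0.001 step to which the score was rounded, and the median change of single bins was -0.0005 in both cultivars. The direction was not stable. With PC1 centred on the median of its chromosome in each library and members chosen again, the difference was -0.00375 in Nip and -0.00675 in 93-11. Centring takes the shift of the chromosome median off every bin, members or not. The median over all scored bins differed between HS and normal by 0.00025 in Nip and 0.005 in 93-11. The centred difference of the other B bins is not given. The normal scores chose the members, so the differences of the members are given without a test. With members chosen on 1 normal library and set against the other, the difference was 0.001 for both choices in Nip, and 0 and 0.0005 in 93-11. The other B bins differed by 0.001 and 0 with a median bin change of -0.0005, and the change of the members minus that of the other B bins was 0 in Nip and 0.00025 in 93-11. The B bins of each cultivar were also cut into 3 equal strata by mean normal PC1, of which the upper held 56.3% of the members of Nip and 61.4% of those of 93-11, but 29% and 29.2% of the other B bins. In that stratum the change of the members minus that of the other B bins was -0.00475 in Nip and -0.0015 in 93-11. Over all scored bins PC1 correlated by 0.986 to 0.995 between replicates and by 0.969 to 0.972 between conditions (Pearson's r, 7040 bins in Nip and 7317 in 93-11). In Nip, 27.9% of the members had both HS libraries above both normal libraries, against 31.9% of all scored bins, and 32.8% had both below, against 32.4%. In 93-11 these shares were 30.6% above, against 29.7% of all scored bins, and 33.8% below, against 29.8%.

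**Figure D2:**
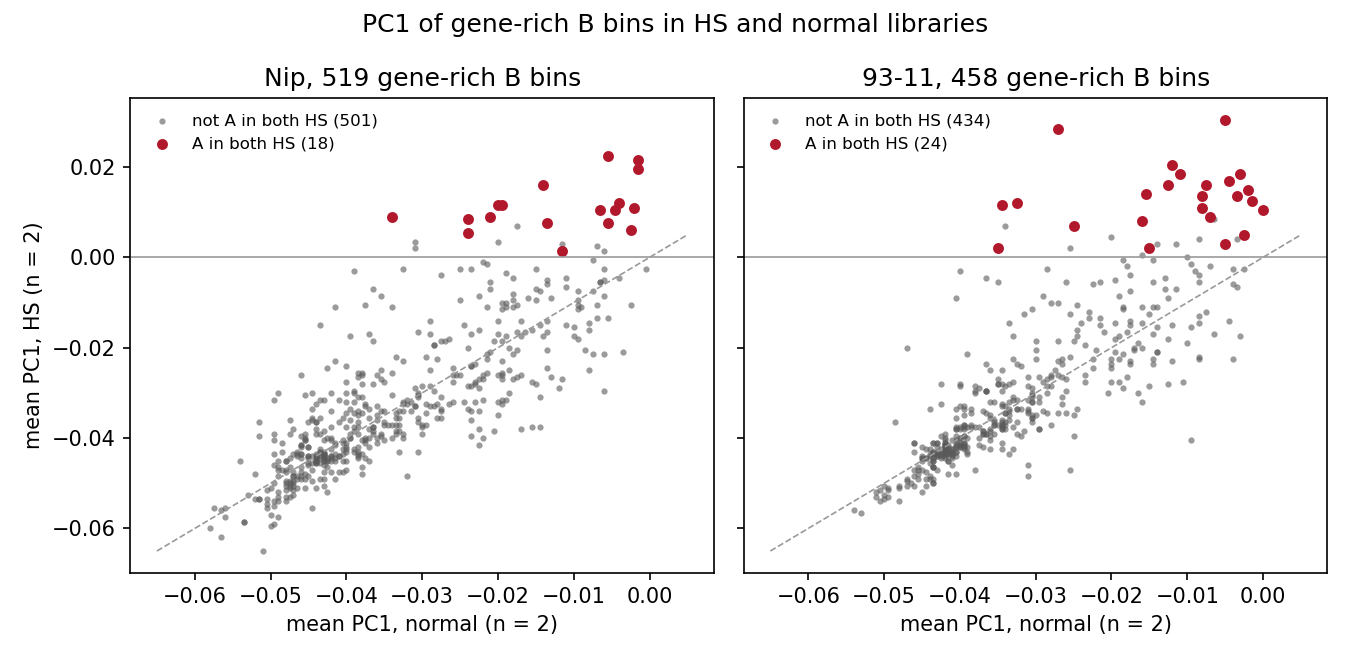
Mean PC1 of the 2 HS libraries (y axis) against mean PC1 of the 2 normal libraries (x axis) for each gene-rich B bin, in Nip (left, 519 bins) and 93-11 (right, 458 bins), with the line of equality dashed. Bins with a score above 0 in both HS libraries are red (18 and 24), and all of them had a normal score in the upper of 3 equal strata of the B bins.

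A small number of members were called A in both HS libraries: 18 in Nip (3.47%), against 2.14% of all B bins, and 24 in 93-11 (5.24%), against 3.4% of all B bins. Among the other B bins it was 56 (1.9%) in Nip and 101 (3.14%) in 93-11. In the other direction, 20 A bins with 7 to 9 genes (1.36%) in Nip and 10 (0.684%) in 93-11 were B in both HS libraries. All switching members, 18 in Nip and 24 in 93-11, were in the upper of the 3 strata of normal PC1. Within that stratum, 6.16% of the members and 6.32% of the other B bins of Nip switched, and 8.54% and 10.3% in 93-11. With PC1 divided by the SD of its chromosome before the strata were formed, the shares were 6.21% and 6.36% in Nip, and 9.06% and 10.3% in 93-11. The strata are wide and do not match PC1: the median normal PC1 in the upper stratum was -0.0238 in members and -0.0285 in other B bins of Nip, and -0.027 and -0.0285 in 93-11. These shares use the scores that chose the members and carry no test. Without Nip HS replicate 2 the Nip count was 32, since that many members were above 0 in HS replicate 1.

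The rule put the members at or below 0 in both normal libraries, so calls above 0 could appear only in HS. Choosing members on 1 normal library and reading the other gave a share for comparison. Chosen on normal replicate 1, 545 bins of Nip qualified, of which 7.89% and 5.87% were above 0 in the HS libraries and 4.77% in the other normal library. Chosen on replicate 2, the shares of 537 bins were 7.64% and 5.4% in HS and 3.35% in normal. In 93-11, 473 bins qualified on either replicate, with 7.61% and 8.25% above 0 in HS against 3.17% in normal for the first choice, and 7.82% and 9.51% against 3.17% for the second. Both HS libraries had the larger share in all 4 choices, which reuse the same libraries. PC1 correlated by 0.995 between normal replicates of each cultivar, against 0.969 to 0.972 between conditions. A library less like the choosing one can cross 0 more often without a shift towards A, so no direction is read from these shares. The other B bins, chosen in the same way, had 3.91% to 5.85% above 0 in HS and 1.35% to 2.04% in the held-out normal library.

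Switching members next to A chromatin were common in 93-11. Of the 85 members of 93-11 beside an A bin, 16 were A in both HS libraries (18.8%), against 12.5% of the other B bins beside an A bin. Of the 373 members with no A neighbour, 8 were (2.14%), against 1.87%. In Nip, 6 of 89 members beside an A bin switched (6.74%), against 6.63% of such other B bins, and 12 of 430 without an A neighbour (2.79%), against 1.27%. Members beside an A bin also started nearer to 0 than such other B bins. Their median normal PC1 was -0.021 against -0.03325 in 93-11, and -0.0225 against -0.031 in Nip. The neighbours were called on the same normal libraries as the members, so these counts are descriptions.

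Single bins were compared with limma, which tests each bin against its own spread, drawn towards a value shared across all bins. Benjamini-Hochberg adjustment covered all scored bins, with a threshold of 0.05. In Nip, 21 members rose in HS (4.05%, against 2.74% of all 7040 bins) and 15 fell (2.89%, against 2.63%). In 93-11, 22 rose (4.8%, against 3.46% of all 7317 bins) and 18 fell (3.93%, against 1.71%). The normal scores of the members entered both the rule and this fit, so nothing is read from the shares. With centred PC1 the split between directions turned, in members and in all bins alike. In Nip, 20 members were higher (3.85%, against 2.46% of all bins) and 48 lower (9.25%, against 9.33%). In 93-11, 32 were higher (6.99%, against 4.25% of all bins) and 157 lower (34.3%, against 41.5%). In either direction these were 68 members of Nip (13.1%, against 11.8% of all bins) and 189 of 93-11 (41.3%, against 45.8%). The counts also rose where 1 library was left out, and so did the share over all bins. Its group then held 1 library, so the spread within groups came from the other pair alone. In either direction, leaving out Nip HS replicate 1 gave 149 members (28.7%, against 19.3% of all bins) and leaving out HS replicate 2 gave 137 (26.4%, against 20.9%), in place of 36 (6.94%, against 5.37%). Leaving out 93-11 HS replicate 1 gave 103 (22.5%, against 14.8%), HS replicate 2 gave 94 (20.5%, against 14.6%) and normal replicate 1 gave 65 (14.2%, against 9.96%), in place of 40 (8.73%, against 5.17%). The other libraries moved the counts less, to 50 (9.63%, against 7.73%) without Nip normal replicate 1, 48 (9.25%, against 7.59%) without Nip normal replicate 2 and 54 (11.8%, against 9.35%) without 93-11 normal replicate 2.

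The bins named next were picked by the size of the change that limma tests, among members chosen on the same normal scores. Their p-values are therefore descriptions and not evidence for single bins. The switching member with the largest rise was chr2:31550001-31600000 of 93-11, a bin of 8 genes beside an A bin. It had a PC1 of 0.028 and 0.029 in HS against -0.025 and -0.029 in normal, a rise of 0.0555 ± 0.00174 (SE; limma adjusted p = 0.0105). In Nip the largest rise was at chr12:5450001-5500000, a bin of 7 genes flanked by B bins on both sides, with 0.006 and 0.012 in HS against -0.037 and -0.031 in normal (limma adjusted p = 0.0354). The next of the named bins of 93-11 were less even between replicates. At chr10:11850001-11900000 the HS libraries had 0.022 and 0.001 and the normal libraries -0.031 and -0.038, which did not pass the test (limma adjusted p = 0.0751). At chr6:21650001-21700000 they had 0.006 and 0.018 in HS against -0.037 and -0.028 in normal (adjusted p = 0.0451, limma). At chr7:8150001-8200000, inside B chromatin, the scores were 0.001 and 0.003 in HS against -0.031 and -0.039 in normal (limma adjusted p = 0.0308). At chr8:5900001-5950000, next to A, they were 0.036 and 0.025 in HS against -0.002 and -0.008 in normal (limma adjusted p = 0.0492).

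The other named switching members of Nip, picked in the same way, were on chromosomes 12, 6 and 5. At chr12:13700001-13750000 the scores were 0.016 and 0.001 in HS against -0.02 and -0.028 in normal, and the bin did not pass the test (limma adjusted p = 0.0686). At chr6:17550001-17600000 they were 0.01 and 0.013 in HS against -0.017 and -0.023 in normal (limma adjusted p = 0.0387). At chr5:1750001-1800000, beside an A bin, they were 0.009 and 0.014 in HS against -0.019 and -0.02 in normal (limma adjusted p = 0.0324). The normal replicates differed at chr6:13400001-13450000, with 0.009 and 0.023 in HS against -0.005 and -0.023 in normal (limma adjusted p = 0.109).

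The members that moved deeper into B all had an A bin on 1 side. The largest of these falls was at chr12:6300001-6350000 of 93-11, a bin of 8 genes with -0.042 and -0.039 in HS against -0.012 and -0.007 in normal, a difference of -0.031 ± 0.00232 (SE; limma adjusted p = 0.0241). In the same cultivar chr10:17150001-17200000 had -0.047 in both HS libraries against -0.024 and -0.027 in normal (limma adjusted p = 0.0217). At chr7:5100001-5150000, -0.018 and -0.027 in HS stood against -0.004 in both normal libraries (limma adjusted p = 0.0792). In Nip, chr10:2150001-2200000 had -0.037 and -0.038 in HS against -0.014 and -0.015 in normal (limma adjusted p = 0.0282), and chr10:15900001-15950000 had -0.04 and -0.035 against -0.018 and -0.013 (limma adjusted p = 0.048). The HS replicates were further apart at chr4:20700001-20750000, with -0.024 and -0.035 in HS against -0.009 and -0.003 in normal (limma adjusted p = 0.0686). The statement on A neighbours covers these 6 bins only. They were picked by their fall, so their p-values are descriptions too.

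TADs were not used to choose the members, and member bins held more TAD boundaries than the rest of B. A TAD boundary was counted in a bin for each distinct start or end of a TAD of any level. In Nip the members had 1.46 and 1.47 boundaries per bin in the HS libraries and 0.988 and 0.902 in the normal libraries. In 93-11 they had 1.28 and 1.38 in HS and 0.943 and 0.954 in normal. All 8 libraries had more boundaries per member bin than per other B bin. The other B bins averaged 1.29 ± 0.0252 in HS and 0.783 ± 0.00408 in normal in Nip, and 1.19 ± 0.0213 in HS and 0.715 ± 0.00725 in normal in 93-11 (SD, n = 2 each). The difference between members and other B bins was 0.177 boundaries per bin on average over libraries, with a range of 0.101 to 0.244 (8 of 8 libraries, exact two-sided sign permutation p = 0.0078, the smallest it can give). This test covers the spread between libraries and not the choice of bins. At least 1 boundary lay in 91.5% ± 2.45 of the members in HS and 78.2% ± 1.09 in normal in Nip, and in 90.3% ± 3.55 in HS and 76.6% ± 0.309 in normal in 93-11 (SD, n = 2 each), on average 9.76 percentage points above the other B bins (8 of 8 libraries, exact sign permutation p = 0.0078).

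**Figure D3:**
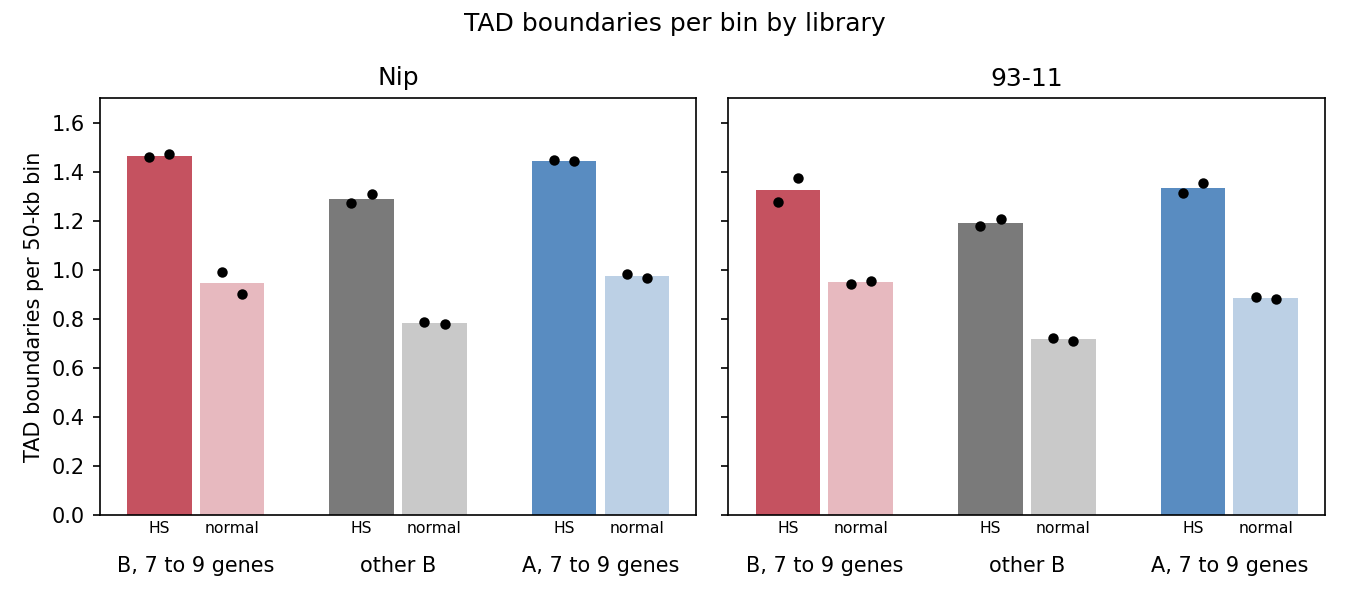
TAD boundaries per 50-kb bin (y axis) in gene-rich B bins, other B bins and A bins of 7 to 9 genes, HS left of normal, in Nip (left) and 93-11 (right). Bars are means of the 2 libraries shown as points, and in all 8 libraries the gene-rich B bins were above the other B bins by 0.101 to 0.244 boundaries.

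The difference to the gene-rich bins of A did not pass the test and changed sign between libraries. The A bins with 7 to 9 genes averaged 1.44 ± 0.00385 in HS and 0.974 ± 0.0111 in normal in Nip, and 1.33 ± 0.0295 in HS and 0.884 ± 0.00339 in normal in 93-11 (SD, n = 2 each). The members differed from them by 0.0127 boundaries per bin, from -0.0643 in Nip normal replicate 2 up to 0.0725 in 93-11 normal replicate 2 (higher in 6 of 8 libraries, exact sign permutation p = 0.44), and by -0.0143 where outermost TADs alone were counted. Bins with more genes mostly had more boundaries in both compartments. Over the 5 classes of gene number from 0 to 2 up to 10 or more, the next higher class had the higher value in 30 of 32 steps in B and in 29 of 32 in A, counted in single libraries, and the exceptions were all in HS libraries. In B bins of Nip with 0 to 2 genes it was 1.22 ± 0.0536 in HS and 0.65 ± 0.0066 in normal, and in B bins with 10 or more genes 1.58 ± 0.0667 in HS and 1.08 ± 0.0267 in normal (SD, n = 2 each). In 93-11 the corresponding values were 1.09 ± 0.0307 in HS and 0.561 ± 0.00675 in normal with 0 to 2 genes, and 1.43 ± 0.139 and 1.03 ± 0.0693 with 10 or more. A bins with 0 to 2 genes, of which there were 53 in Nip and 62 in 93-11, had 1.22 ± 0.147 in HS and 0.67 ± 0.12 in normal in Nip, and 1.19 ± 0.057 in HS and 0.605 ± 0.0798 in normal in 93-11. Within the members the order by gene number was less even. Those of 7, 8 and 9 genes had 1.43 ± 0.00246, 1.45 ± 0.0557 and 1.63 ± 0.0739 in HS and 0.943 ± 0.0517, 0.927 ± 0.0686 and 1 ± 0.0844 in normal in Nip. In 93-11 they had 1.32 ± 0.0492, 1.32 ± 0.0878 and 1.36 ± 0.0943 in HS and 0.898 ± 0.04, 0.997 ± 0.0324 and 1.01 ± 0.00943 in normal (SD, n = 2 each).

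**Figure D4:**
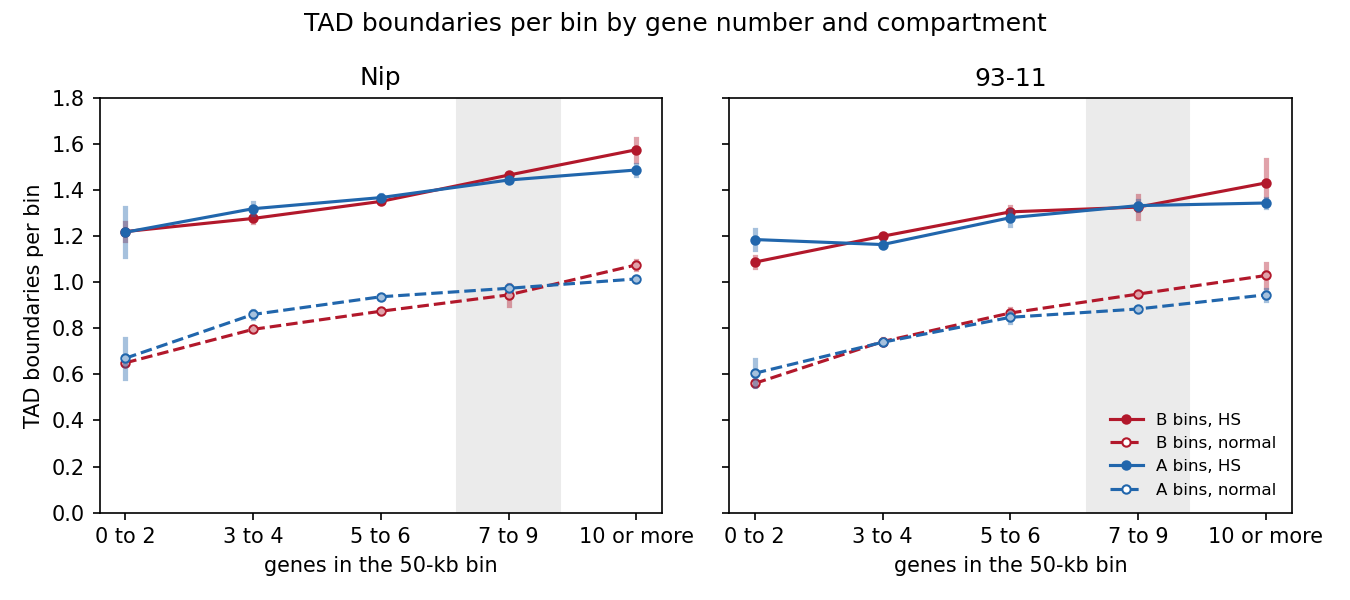
TAD boundaries per bin (y axis) by the number of genes in the bin (x axis) for B bins (red) and A bins (blue), under HS (filled points, solid lines) and normal conditions (open points, dashed lines), in Nip (left) and 93-11 (right). Points are means of 2 libraries, vertical bars their range, and grey marks 7 to 9 genes, where B bins of Nip had 1.47 under HS and 0.945 in normal and A bins 1.44 and 0.974.

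The difference to the other B bins kept its direction within subsets by A neighbours, chromosome ends or normal PC1, not matched for gene number. It was 0.193 for bins with no A bin on either side and 0.183 for bins more than 5 Mb from both ends (exact sign permutation p = 0.0078 for each). Within the strata of normal PC1 it was 0.219 in the lowest, 0.13 in the middle and 0.108 in the upper stratum (exact sign permutation p = 0.016, 0.0078 and 0.0078), against 0.177 over all strata. The lowest stratum held only 80 members of Nip and 38 of 93-11. There, the members of 93-11 HS replicate 1 were below the other B bins (1 against 1.05), and those of the other libraries above. Over the 4 libraries, the members had more boundaries than the other B bins on 12 of 12 chromosomes in Nip and on 11 of 12 in 93-11, where chromosome 12 with its 8 members had 1.06 against 1.1. With the 12 chromosomes weighted equally, the difference to the other B bins was 0.121 (exact sign permutation p = 0.0078), below the 0.177 without such weights. Part of the surplus lay in the member bin and part around it. In Nip the member bins had 0.0732 to 0.141 boundaries more than the mean of the 5 bins on each side, and in 93-11 they had 0.043 to 0.146 more. Other B bins differed from their flanks by -0.0361 to -0.00953 in Nip and by -0.0244 to 0.0124 in 93-11, and A bins with 7 to 9 genes were 0.0419 to 0.0508 above theirs in Nip and 0.0343 to 0.0463 in 93-11. The flanks of the members were themselves above the other B bins, by 0.0244 to 0.101 in Nip and by 0.0577 to 0.0984 in 93-11. Unlike the other B bins, these flanks included A bins. Against the flanks of other B bins they were higher in every library, closest in Nip HS replicate 2 (1.33 against 1.32). The gap was widest in Nip HS replicate 1 (1.37 against 1.28). Gene number had the same local peak, by the rule, with 7.58 genes in the member bins of Nip and 7.66 in those of 93-11.

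**Figure D5:**
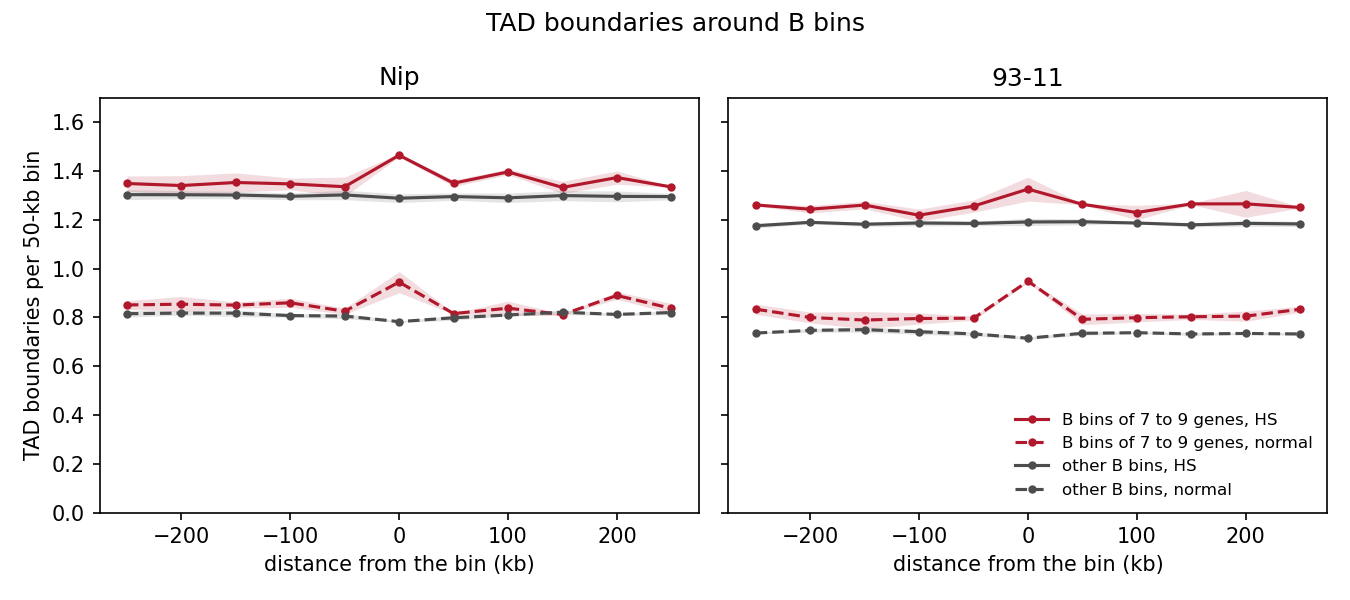
TAD boundaries per 50-kb bin (y axis) by distance from a gene-rich B bin (red) or another B bin (grey), in kb (x axis), under HS (solid) and normal conditions (dashed), in Nip (left) and 93-11 (right). Lines are means of 2 libraries and bands their range, and the member bins were 0.043 to 0.146 boundaries above the mean of their flanks in the 8 libraries.

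Under HS there were more TAD boundaries in the members, and in all other sets of bins as well. The members had 1.47 ± 0.00954 boundaries per bin in HS and 0.945 ± 0.0613 in normal in Nip, a ratio of 1.55, and 1.33 ± 0.0695 in HS and 0.949 ± 0.00772 in normal in 93-11, a ratio of 1.4 (SD, n = 2 each). The HS and normal libraries did not overlap in either cultivar. The exact permutation test over libraries gave p = 0.33 in each cultivar and p = 0.056 over both, the smallest values the design allows. Over all scored bins the ratio was 1.55 in Nip and 1.56 in 93-11, and in the other B bins 1.65 and 1.67. The excess of the members over the other B bins was 0.176 ± 0.0157 boundaries per bin in HS and 0.162 ± 0.0572 in normal in Nip, and 0.135 ± 0.0482 in HS and 0.234 ± 0.015 in normal in 93-11 (SD, n = 2 each). As a log2 ratio of members to other B bins it was 0.19 in HS and 0.27 in normal in Nip, and 0.15 in HS and 0.41 in normal in 93-11. The log2 ratio differed between HS and normal by -0.17 over both cultivars (exact permutation p = 0.056, the smallest possible, and 0.33 in each cultivar). The lists as a whole held 11273 and 11911 TADs in HS against 8703 and 8767 in normal in Nip, and 11652 and 11712 in HS against 8317 and 8531 in normal in 93-11. Sequencing depth was not used here, and its part in the number of TADs called was not tested.

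A boundary of HS replicate 1 with one of HS replicate 2 and none of either normal library within 5 kb was counted as gained, in the bin that held it in replicate 1. The match could lie in the next bin, and 1 boundary of replicate 2 could match more than 1 of replicate 1. Lost boundaries were counted likewise from normal replicate 1. Positions lie on 5-kb steps, so some matches can arise by position alone, more of them in the fuller HS lists. Their rate was not estimated. In Nip, 170 of the 454 boundaries that the HS libraries shared in members were gained (37.4%), against 40.8% in the other B bins and 29.7% in A bins with 7 to 9 genes. In 93-11, 126 of 316 were gained (39.9%), against 45.6% and 38.5%. Over all scored bins the gained share was 34.3% in Nip and 41.2% in 93-11. Of the boundaries shared by the normal libraries, 51 of 310 were lost in members of Nip (16.5%, against 15.4% in the other B bins) and 38 of 248 in members of 93-11 (15.3%, against 20.6%). Over all scored bins the lost share was 12.8% in Nip and 17.6% in 93-11. Boundaries found in all 4 libraries numbered 154 in the members of Nip, 0.297 per bin against 0.232 in the other B bins and 0.387 in A bins with 7 to 9 genes. In 93-11 they numbered 92, 0.201 per bin against 0.139 and 0.277. As a share of the boundaries shared by the normal libraries, members and other B bins were close. The share was 49.7% in members and 49.3% in other B bins of Nip, and 37.1% and 37.5% in 93-11. In A bins with 7 to 9 genes it was 55.5% in Nip and 48% in 93-11. The member with the most gained boundaries, 3, was chr1:26700001-26750000 of Nip, a bin of 7 genes with 3 and 2 boundaries in HS and 0 in both normal libraries. In 93-11, 8 members tied at 2 gained boundaries, and the first by position, chr1:10750001-10800000 with 7 genes, had 2 and 3 in HS and 0 in both normal libraries.

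The next members by position had boundaries in normal plants too. In Nip, where 15 members tied at 2 gained boundaries, chr1:10700001-10750000 with 9 genes had 3 and 1 in HS against 2 and 1 in normal, and chr1:33900001-33950000 with 8 genes had 3 in both HS libraries against 1 in both normal libraries. In 93-11, chr1:22400001-22450000 with 8 genes had 2 in both HS libraries against 1 in both normal libraries, and chr2:2050001-2100000, also with 8 genes, had 2 and 1 in HS against 1 and 0 in normal. PC1 of these 6 bins stayed at or below 0 in every library.

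The TADs over the members were small and shallowly nested for B chromatin. The smallest TAD over the midpoint of a member had a median size of 35 kb in both HS libraries and 65 kb in both normal libraries of Nip. In 93-11 it was 45 and 40 kb in HS and 70 kb in both normal libraries (exact permutation p = 0.33 in each cultivar and 0.056 over both). The members were 9.38 kb below the other B bins on average over the 8 libraries, with differences of -15 to 0 kb (exact sign permutation p = 0.016), and 1.25 kb above A bins with 7 to 9 genes (exact sign permutation p = 0.69). The outermost TAD placed them between both. Its median over members was 110 kb in both HS libraries and 245 and 260 kb in the normal libraries of Nip, and 140 and 110 kb in HS and 260 and 265 kb in normal in 93-11. Members were 37.5 kb below the other B bins (exact sign permutation p = 0.0078, below in 8 of 8 libraries) and 32.5 kb above A bins with 7 to 9 genes (exact sign permutation p = 0.016). The mean number of nested TADs over a member, 1.92 ± 0.117 in HS and 2.36 ± 0.0654 in normal in Nip and 2.01 ± 0.0293 in HS and 2.35 ± 0.00618 in normal in 93-11 (SD, n = 2 each), was 0.207 below that of the other B bins and 0.13 above that of the gene-rich A bins (exact sign permutation p = 0.0078 for each).

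Some members lay outside any TAD, and more of them in HS. In Nip the midpoint of 71 and 38 members (13.7% and 7.32%) was outside in the HS libraries, against 16 and 9 (3.08% and 1.73%) in the normal libraries. In 93-11 it was 41 and 29 (8.95% and 6.33%) in HS against 16 (3.49%) in both normal libraries. The HS libraries were above the normal libraries in both cultivars (exact permutation p = 0.33 in each and 0.056 over both), and the share over all scored bins was 9.91% in HS against 1.69% in normal in Nip and 7.62% against 1.89% in 93-11. The 2 HS libraries of Nip were far apart: the difference of 8.09 percentage points was 4.91 without HS replicate 1. By this measure the members differed from the other B bins by 1.16 percentage points (exact sign permutation p = 0.13), and by -0.397 from A bins with 7 to 9 genes (exact sign permutation p = 0.58). By the share of bases outside any TAD they were above the other B bins in 8 of 8 libraries, by 0.607 to 3.77 percentage points (exact sign permutation p = 0.0078).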

How the data were processed

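The authors mapped Hi-C reads with HiC-Pro, built contact matrices with HiCExplorer and deposited a PC1 score per 50-kb bin of each library, rounded to 3 decimals, with a gene number whose annotation is not named. The methods describe PC1 from HOMER on coarser bins, with active regions assigned by gene annotation, so the tool behind these scores is uncertain and their sign is not independent of gene number. The deposited TAD lists nest at 5-kb steps, while the methods name a caller whose TADs do not nest. The genome build is not given in the sources used here, so bins carry the coordinates of the files and no gene names. The study calls the replicates biological. Depths were not used here, so no counting interval is given.

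Members, lists and tests were chosen with earlier results of these data known. Bins named were, per cultivar, the 3 with the lowest normal PC1 (1 is printed), the 5 called A in both HS libraries with the largest rise, the 3 with the largest fall and no overlap, the 2 longest runs and the 3 with the most gained boundaries, with ties going to the first by position. A boundary on a bin edge was counted in the bin that ends there. PC1 was fitted with limma 3.58.1 in R 4.3.3, each cultivar alone, with the variance of rounding added to each residual variance before eBayes, and the fit was tested on simulated data. Other values came from Python 3.11.15 with pandas 2.3.3 and numpy 2.4.6. Exact two-sided permutation tests ran over libraries (smallest p 0.33 within a cultivar, 0.056 over both with 36 relabellings, 0.0078 for signs over 8 libraries). Over the 14 sign tests of members against other bins (7 TAD measures, 2 comparisons), a p of 0.0078 gave a Benjamini-Hochberg adjusted p of 0.0182 and a p of 0.016 gave 0.0273.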

Additional observations from a re-analysis of the deposited data

How the results depend on the processing

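The surplus of boundaries in members over other B bins kept its direction and a p below 0.05 in all 21 alternatives, between 0.108 and 0.219, and between 0.167 and 0.188 without single libraries. The difference to A bins with 7 to 9 genes, which did not pass the test, became -0.0143 with outermost TADs alone and -0.00872 with TADs of levels 0 and 1, and ran between 0.0042 and 0.0237 without single libraries. More boundaries, smaller TADs and more midpoints outside TADs in HS kept their direction in every alternative, but 2 against 2 libraries cannot pass the threshold.

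The PC1 change of members, near 0, changed sign: with PC1 centred on its chromosome and members chosen again it was -0.00375 in Nip and -0.00675 in 93-11, in 93-11 with PC1 divided by the SD of its chromosome -0.00468 SD, and in 93-11 with normal PC1 of -0.005 or below -0.0005. The change minus that of other B bins was -0.00475 in the upper stratum of normal PC1 in Nip, in place of 0, and in 93-11 became -0.001 in the lowest and -0.0015 in the upper stratum of normal PC1, -0.000158 SD in the SD unit and -0.0005 with normal PC1 of -0.005 or below. Centring takes the shift of the chromosome median off every bin, members or not. The cause of these changes was not tested.

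Members called A in both HS libraries numbered 9 in Nip and 14 in 93-11 with normal PC1 of -0.005 or below, 29 and 45 with 6 to 10 genes, 6 in Nip with 8 to 9 genes, and 15 in 93-11 with centred PC1. Without single libraries they numbered 23 to 32 in Nip and 27 to 35 in 93-11. Leaving out a library loosens the rule or the call, so these counts could not fall. Members called by limma numbered 63 in Nip (12.1%, against 13.9% of all bins) and 81 in 93-11 (17.7%, against 17.1%) on PC1 as deposited, and 68 (13.1%, against 11.8%) and 189 (41.3%, against 45.8%) with centred PC1, in place of 36 and 40, and 48 to 149 and 54 to 103 without single libraries (7.59% to 20.9% and 9.35% to 14.8% of all bins). With the replicate number as a block (replicate block) they numbered 103 (19.8%, against 15.4%) and 95 (20.7%, against 14.6%). Same-numbered libraries share only a number: their deviations of PC1 correlated by 0.0182 in Nip and 0.0136 in 93-11 over all scored bins. The alternatives by chromosome ends, A neighbours, equal chromosome weights, weighting by gene number, strata of PC1 for boundaries and calls, and changes of at least 0.005 were added after the data were seen. The 2 libraries per group limit every comparison of HS with normal.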
